A study of Mus musculus with 28 samples.

Results

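Hybrid dendritic cells and conventional dendritic cells of type 2 (cDC2) were compared in the spleens of C57BL/6 mice that carry the altered Irf8 allele on both chromosomes, a genotype the labels write as Irf8 +32H/H and that is called H/H here. The comparison used 4 of the 28 libraries of the series, 2 of H/H hybrid cells and 2 of H/H cDC2, which were chosen by their titles. All 4 belong to experiment 1, whose 16 libraries were fitted together. The other 12 libraries hold cDC1 and cDC2 of wild-type (WT) mice, cDC1, hybrid cells and cDC2 of Irf8 +32H/+ mice (H/+, with 1 altered copy), and cDC1 of H/H mice, with 2 libraries a group. H/H hybrid cells and H/H cDC1 of experiment 2 served as a separate set of libraries for 1 question. Every group was sort-purified from spleen, and H/H cDC2 carry the altered allele as hybrid cells do. The sort gates and the animals' ages are not given in the sources used here, and RNA of a protein that served in a gate is not an independent readout. The replicates are called biological duplicates, without a statement on animals or pools, so p-values measure the spread between these 2 libraries a group.

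IRF8 is the transcription factor on which the cDC1 lineage depends, and in developing cDC1 its gene is kept active through an enhancer 32 kb downstream of its start, where BATF3 binds. Classical cDC1 take up dead cells, present their antigens to CD8 T cells and carry the chemokine receptor XCR1, whereas cDC2 depend more on IRF4, ZEB2 and Notch signalling, carry SIRPα and prime CD4 T cells. The series title places the altered allele in that enhancer, and the hybrid cells are the population whose name marks them as lying between both lineages.

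Irf8 (chr8:120736358-120756694, plus strand, GRCm38) was the gene to read first. Its level was 544 and 579.7 CPM (counts per 1000000 counts of a library) in the 2 H/H hybrid libraries and 86.2 and 109 CPM in the 2 H/H cDC2 libraries. The groups did not overlap, and the difference was a log2 fold change of 2.52 ± 0.14 (SE), with an adjusted p of 5.12e-09 in edgeR's quasi-likelihood test. H/H cDC1 stood at 837 and 831 CPM and WT cDC2 at 48.9 and 47.9 CPM. The hybrid libraries thus lay between the cDC2 and the cDC1 of the same genotype. Bulk RNA cannot tell fewer cells with the RNA apart from less RNA per cell, here and for every gene below.

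The 3 genes that mark the comparison all passed the test. Xcr1 (chr9:123852315-123862029, minus strand), the receptor for XCL1 on cDC1, was at 458 and 471 CPM in hybrid cells and at 7.47 and 10.5 CPM in cDC2 (log2 fold change 5.69 ± 0.16 SE, adjusted p = 1.23e-11). Itgae (chr11:73090583-73147446, plus strand), which encodes CD103, was at 77.3 and 68.2 CPM against 0.700 and 0.709 CPM (6.68 ± 0.37, adjusted p = 1.11e-07). Dtx1 (chr5:120680202-120711927, minus strand), a Deltex ubiquitin ligase gene known as a Notch target, was at 9.01 and 5.83 CPM against 133 and 131 CPM (-4.16 ± 0.20, adjusted p = 3.18e-09). None of these groups overlapped: Xcr1 and Itgae were high in both hybrid libraries, and Dtx1 was high in both cDC2 libraries. For Itgae the hybrid libraries also overlapped with H/H cDC1, at 113 and 74.4 CPM, and for Dtx1 both hybrid libraries stayed above H/H cDC1, at 0.140 and 0.192 CPM.

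**Figure D1:**
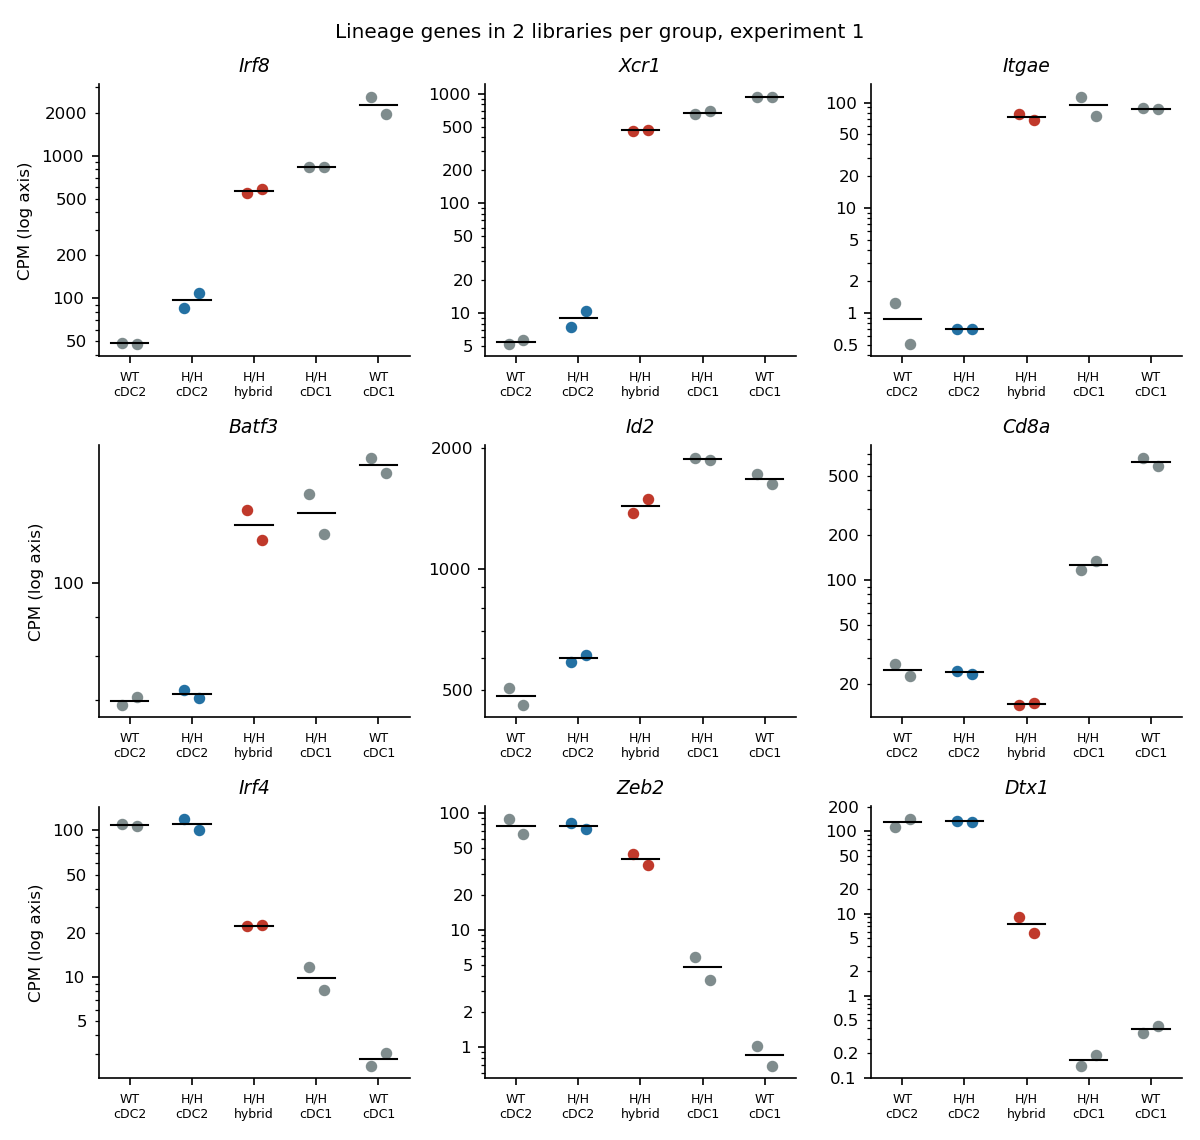
CPM on a log axis of 9 lineage genes in WT cDC2, H/H cDC2, H/H hybrid cells, H/H cDC1 and WT cDC1; each dot is a library and each bar the mean of 2. Hybrid cells sit at 544 and 579.7 CPM for Irf8 against 86.2 and 109 CPM in H/H cDC2, and Cd8a is the 1 cDC1 marker shown that is lower in hybrid cells than in H/H cDC2.

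Of 16036 genes tested, 4078 (25.4%) differed between H/H hybrid cells and H/H cDC2 at an adjusted p below 0.05. They were split almost evenly, with 2072 genes higher (12.9%) and 2006 lower (12.5%) in hybrid cells. The lower genes changed more: their median fold was 1.99, against 1.68 for the higher genes, and 498 lower genes changed at least 4-fold against 280 higher ones. At 16-fold or more there were 84 lower and 57 higher genes. For all 4078 both libraries of one group lay above both of the other, which was also true of 64.9% of all tested genes. The even split depended on the scaling: with library totals in place of TMM factors, an alternative added after the data were seen, 1150 genes were higher and 4178 lower. That scaling moved the median log2 fold change of all tested genes from -0.03 to -0.27, and medians of gene groups below are to be read against -0.03. The count was 2520 without hybrid replicate 1, 2620 without hybrid replicate 2, 2613 without cDC2 replicate 1 and 3051 without cDC2 replicate 2.

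**Figure D2:**
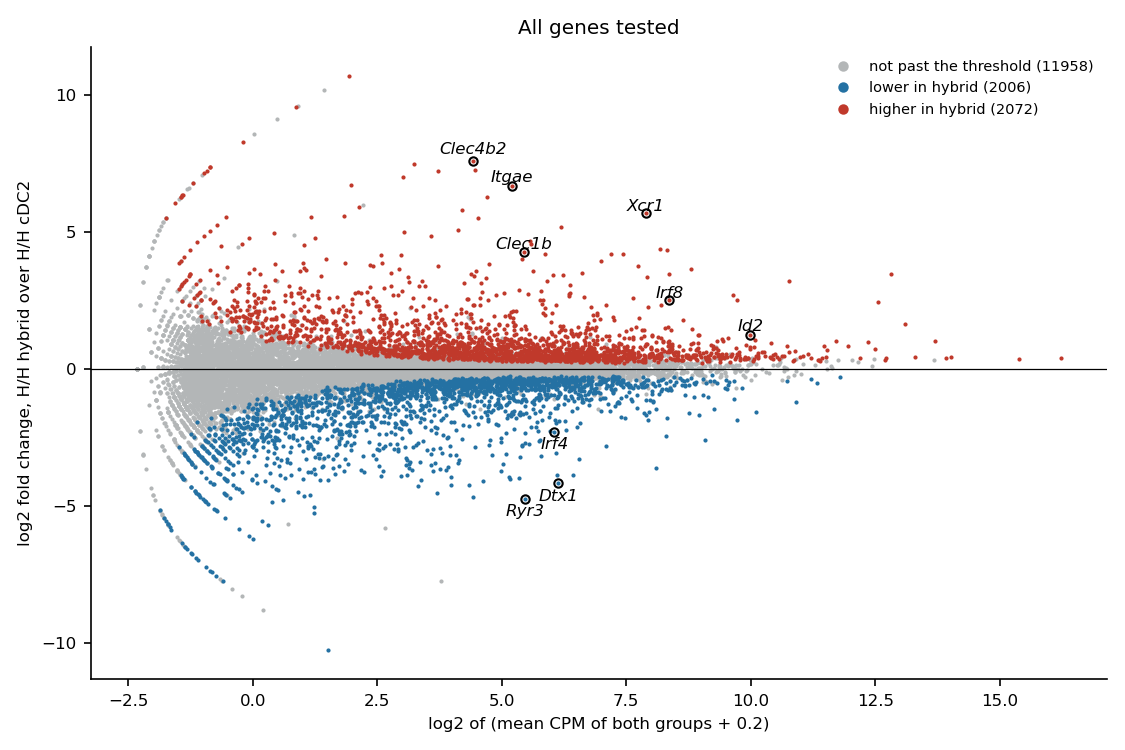
Log2 fold change of H/H hybrid cells against H/H cDC2 over mean expression on a log2 CPM scale for the 16036 genes tested, 1 dot a gene, with genes past the adjusted p threshold in colour and named genes labelled. Of the coloured genes 2072 lie above 0 and 2006 below it.

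The 12 largest rises by the naming rule were all genes that WT cDC1 also had above WT cDC2. Clec4b2, a C-type lectin receptor gene, was at 35.0 and 49.6 CPM in hybrid cells and at 0.0667 and 0.355 CPM in cDC2 (log2 fold change 7.61). Dkk3, of the Dickkopf family of secreted proteins, was at 15.4 and 21.5 CPM against 0.100 and 0.0967 CPM (7.49). Gcsam, a signalling adaptor gene first described in germinal centre B cells, was at 40.2 and 46.8 CPM against 0.267 and 0.290 CPM (7.26). For each of these the cDC2 libraries were near the floor of detection, while both hybrid libraries were well above it. The other 9 of the 12 largest rises had log2 fold changes from 5.06 (Plpp1) to 7.25 (Gramd2) and included Ptgis, the prostacyclin synthase gene, and Flt1, which encodes a receptor for VEGF. Flt1 was at 42.5 and 46.0 CPM against 0.800 and 1.10 CPM. Plpp1, a phosphatidic acid phosphatase gene, was the least certain of them, at 27.5 and 39.6 CPM against 0.767 and 1.22 CPM with an SE of 0.78.

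The largest fall by the naming rule was that of Ryr3, a calcium release channel gene. It was at 3.77 and 2.55 CPM in hybrid cells and at 76.7 and 91.7 CPM in cDC2 (log2 fold change -4.74). Scn3a, a sodium channel gene, was at 2.18 and 1.05 CPM against 47.5 and 33.6 CPM (-4.65). Itgb3, the integrin β3 chain, was at 1.48 and 0.663 CPM against 24.1 and 24.8 CPM (-4.51). All 3 were high in both cDC2 libraries and low in both hybrid libraries, and H/H cDC1 held at most 0.308 CPM of each. Mmp9, which encodes a matrix metalloprotease, was at 0.986 and 1.33 CPM against 19.8 and 18.7 CPM. Igsf3, a gene of the immunoglobulin superfamily, was at 5.28 and 4.46 CPM against 80.7 and 70.8 CPM. The 12 largest falls ranged from -3.95 (Pglyrp2, a peptidoglycan recognition protein gene) to -4.74, a narrower span than that of the rises.

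The cDC1 markers moved almost as a block. Of 28 markers tested 26 were higher in hybrid cells, 1 was lower and 1 did not pass, with a median log2 fold change of 3.60, against a median of -0.03 and 12.9% higher over all genes. The list was used to check the label and includes the marker genes Xcr1 and Itgae. Clec9a, the receptor for actin filaments exposed by dead cells, was at 144 and 153 CPM in hybrid cells against 15.4 and 19.5 CPM in cDC2 (3.09 ± 0.13 SE). Tlr3, which senses double-stranded RNA, was at 35.4 and 46.6 CPM against 2.77 and 4.03 CPM (3.59 ± 0.19). Gpr141b, an orphan receptor gene, was at 143 and 142 CPM against 3.87 and 3.96 CPM (5.18 ± 0.17). None of these groups overlapped. H/H cDC1 stood at 181 and 178 CPM for Clec9a, which did not differ from hybrid cells by the test (adjusted p = 0.185), and at 325 and 256 CPM for Gpr141b, which did (adjusted p = 1.75e-04). Cd207, which encodes langerin, had 5.92 and 8.79 CPM against 0.0667 and 0.0645 CPM, and its cDC2 level rests on 4 reads in all. Cd24a, at 22.7 and 22.4 CPM against 25.6 and 28.7 CPM, was the marker that did not pass (-0.27, adjusted p = 0.220), and with library totals it was lower (-0.51, adjusted p = 0.0115).

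Cd8a was the marker that was lower. It encodes the CD8α chain that marks splenic cDC1, and it was at 14.4 and 15.0 CPM in hybrid cells and at 24.6 and 23.5 CPM in cDC2 (log2 fold change -0.71 ± 0.14 SE, adjusted p = 0.00207). The groups did not overlap, and both were far below H/H cDC1 at 117 and 134 CPM and WT cDC1 at 660.5 and 581 CPM. WT cDC2, at 27.0 and 22.5 CPM, stood close to H/H cDC2.

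Promoter sequences are shown for 4 named genes whose window holds a motif of a factor that acts on cDC fate, and for Xcr1, whose window holds none of the motifs searched. They were picked after the windows had been read. Each window is the 250 bases before the first base of the RefSeq gene (GRCm38.p6, the start named first in RefSeq), printed 5′ to 3′ on the gene's own strand. Capitals mark the motif: a tandem of GAAA, the core that IRF proteins bind, with 2 bases between both copies, in Gpr141b; TTACNTAA, the D-box that NFIL3 binds, in Tlr3; TGANTCA, the AP-1 element that BATF proteins bind with JUN, in Cd207; and the E-box CACCTG that ZEB proteins bind, on the opposite strand in Igsf3.
Gpr141b (chr13:19732952-19733201, minus strand): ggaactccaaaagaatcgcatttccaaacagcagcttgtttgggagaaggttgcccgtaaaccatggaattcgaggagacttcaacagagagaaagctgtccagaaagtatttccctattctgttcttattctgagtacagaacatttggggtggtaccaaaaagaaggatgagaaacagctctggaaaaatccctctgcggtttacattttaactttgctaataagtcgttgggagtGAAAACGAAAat
Tlr3 (chr8:45410381-45410630, minus strand): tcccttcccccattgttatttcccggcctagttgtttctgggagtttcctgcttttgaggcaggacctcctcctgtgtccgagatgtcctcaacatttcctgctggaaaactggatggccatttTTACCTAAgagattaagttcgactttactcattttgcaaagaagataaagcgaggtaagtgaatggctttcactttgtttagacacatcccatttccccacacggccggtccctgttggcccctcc
Cd207 (chr6:83677858-83678107, minus strand): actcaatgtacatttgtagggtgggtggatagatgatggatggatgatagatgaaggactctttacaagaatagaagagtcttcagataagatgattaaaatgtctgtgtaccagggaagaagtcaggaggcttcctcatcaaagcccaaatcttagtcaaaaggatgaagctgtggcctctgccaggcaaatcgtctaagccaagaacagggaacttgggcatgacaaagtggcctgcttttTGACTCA
Igsf3 (chr3:101376875-101377124, plus strand): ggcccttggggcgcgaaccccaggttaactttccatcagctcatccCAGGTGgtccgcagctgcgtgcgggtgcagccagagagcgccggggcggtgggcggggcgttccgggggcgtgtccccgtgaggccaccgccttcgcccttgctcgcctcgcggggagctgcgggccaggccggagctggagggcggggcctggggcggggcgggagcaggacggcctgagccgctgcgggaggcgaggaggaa
Xcr1 (chr9:123862030-123862279, minus strand): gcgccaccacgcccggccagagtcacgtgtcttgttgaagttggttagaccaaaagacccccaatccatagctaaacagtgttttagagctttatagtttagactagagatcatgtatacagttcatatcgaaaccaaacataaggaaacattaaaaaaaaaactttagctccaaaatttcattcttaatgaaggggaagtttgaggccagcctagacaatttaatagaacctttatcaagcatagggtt
The matches lie 12 to 3 bases before the start in Gpr141b, 126 to 119 in Tlr3, 7 to 1 in Cd207 and 204 to 199 in Igsf3. The TGANTCA match of Cd207 reads as the motif on both strands. With both strands searched, the GAAA tandem was in 2.92% of the 10690 windows of tested genes, in 5.85% of the 188 windows of genes at least 4-fold higher in hybrid cells and in 1.80% of the 334 windows of genes at least 4-fold lower. TGANTCA was in 4.42%, 9.04% and 5.99% of the same windows, TTACNTAA in 1.38%, 3.72% and 1.80%, and CACCTG in 14.9%, 19.7% and 22.2%. TGGGAA, the core that RBPJ binds, was in 20.3%, 21.8% and 21.3%, and GGAA followed after 2 bases by GAAA, the composite of ETS and IRF factors, in 2.05%, 3.19% and 2.69%. Matches of the tandem and of this composite can overlap. Composites of BATF and IRF factors were rare: TGANTCA followed after 4 bases by GAAA was in 3 and GAAA directly before TGANTCA in 7 of the 10690 windows, and each of these matches also counts as a TGANTCA match. These shares are a description of sequence without a test, and 80 of the 111 genes named by rule had a window.

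The cDC2 markers did not fall as a block. Of 26 tested, 14 were lower (53.8%), 4 were higher (15.4%) and 8 did not pass, with a median log2 fold change of -0.99, against 12.5% lower and 12.9% higher over all genes. Sirpa, the receptor for CD47, was at 103 and 91.5 CPM in hybrid cells and at 238 and 211 CPM in cDC2 (-1.21 ± 0.16 SE, adjusted p = 8.57e-05). Itgam, which encodes CD11b, was at 39.0 and 37.1 CPM against 81.4 and 79.1 CPM (-1.08 ± 0.19, adjusted p = 0.00102). Both were lower in both hybrid libraries, and both were still several times their level in H/H cDC1, where Sirpa had 8.17 and 4.81 CPM and Itgam 5.13 and 5.08 CPM. The steepest falls among the markers were Dtx1, Mmp9, Tlr5 (the flagellin receptor, 1.58 and 0.977 CPM against 20.0 and 13.3 CPM) and Clec4a4, the lectin gene that encodes DCIR2. Clec4a4 was at 14.5 CPM in both hybrid libraries and at 119.7 and 122 CPM in cDC2 (-3.06 ± 0.12, adjusted p = 2.11e-10).

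The 4 cDC2 markers that were higher were Clec12a, Cd209a, Cd4 and Jaml. Clec12a, an inhibitory lectin receptor for uric acid crystals, was at 236 and 222 CPM against 42.6 and 47.3 CPM (log2 fold change 2.35 ± 0.13 SE). Cd209a, a DC-SIGN homologue, was at 806 and 927 CPM against 414 and 428 CPM (1.04 ± 0.19). Cd4 was at 295 and 288 CPM against 239 and 189 CPM (0.44 ± 0.15, adjusted p = 0.0382). Clec12a was also higher in WT cDC1 than in WT cDC2 (1.68), and so was Jaml (1.01), whereas Cd209a (-5.79) and Cd4 (-5.24) were lower there. The Cd4 call was lost with library totals (0.20, adjusted p = 0.310) and without hybrid replicate 1 (adjusted p = 0.151), hybrid replicate 2 (adjusted p = 0.117) or cDC2 replicate 2 (adjusted p = 0.286). With library totals 2 of these markers were higher and 17 lower, and without hybrid replicate 1 it was 2 and 14.

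Of 34 lineage transcription factors tested, 7 were higher (20.6%) and 13 lower (38.2%) in hybrid cells, with a median log2 fold change of -0.26, against 12.9% and 12.5% over all genes. Id2, the inhibitor of E proteins needed for cDC1, was at 1381 and 1493 CPM in hybrid cells and at 585 and 611 CPM in cDC2 (1.26 ± 0.10 SE). Batf3, the AP-1 factor that maintains Irf8 in cDC1, was at 125 and 114 CPM against 72.1 and 70.3 CPM (0.75 ± 0.09), and H/H cDC1 held 131 and 116 CPM. For Batf3 the hybrid and H/H cDC1 libraries overlapped. Irf4, the cDC2 counterpart of Irf8, was at 22.3 and 22.5 CPM against 120.0 and 100.5 CPM (-2.30 ± 0.25). Tcf4, the E protein of plasmacytoid cells and some cDC2, was at 45.8 and 42.8 CPM against 123 and 129.7 CPM (-1.51 ± 0.11). Tbx21, which encodes T-bet and marks a cDC2 subset, was at 0.352 and 0.384 CPM against 3.87 and 5.06 CPM (-3.59 ± 0.41). Irf4, Tcf4 and Tbx21 were each low in both hybrid libraries, with no overlap.

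Zeb2, the repressor that favours cDC2 and opposes cDC1 fate, was lower by less. It was at 44.4 and 35.9 CPM in hybrid cells and at 82.3 and 72.6 CPM in cDC2 (log2 fold change -0.95 ± 0.24 SE, adjusted p = 0.0130), while H/H cDC1 had 5.87 and 3.69 CPM. The groups did not overlap, but the call was lost without hybrid replicate 2 (-0.80, adjusted p = 0.116) or without cDC2 replicate 1 (-0.85, adjusted p = 0.0884). Zbtb46, which marks conventional dendritic cells, was at 23.7 and 25.5 CPM against 30.6 and 35.5 CPM (-0.42 ± 0.11, adjusted p = 0.00785), a call lost without hybrid replicate 1 (adjusted p = 0.0832) or cDC2 replicate 2 (adjusted p = 0.0951). Nfil3, a repressor of Zeb2 in cDC1 precursors, was at 11.7 and 9.77 CPM against 7.47 and 9.64 CPM, and did not pass (0.33 ± 0.29, adjusted p = 0.459). Over the whole list the number of lower factors fell from 13 to 8 without cDC2 replicate 1.

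Dtx1 was not typical of the Notch pathway list. Of 27 Notch pathway genes tested 7 were higher (25.9%) and 5 lower (18.5%), against 12.9% and 12.5% over all genes, with a median log2 fold change of -0.08. Notch2, the receptor that shapes splenic cDC2, was at 196 and 184 CPM against 272 and 262 CPM (-0.49 ± 0.12 SE, adjusted p = 0.00789). Notch4 was at 4.61 and 6.38 CPM against 0.567 and 1.64 CPM (2.30 ± 0.40), and Maml2, a coactivator of the Notch complex, at 20.2 and 19.2 CPM against 6.50 and 5.74 CPM (1.69 ± 0.18). Dtx4, a paralogue of Dtx1, was higher in both hybrid libraries, at 10.5 and 6.56 CPM against 3.07 and 3.29 CPM (1.42 ± 0.24). Rbpj, which encodes the DNA-binding partner of Notch, was at 90.0 and 91.7 CPM against 83.7 and 83.9 CPM and did not pass (0.12, adjusted p = 0.365). With library totals the split turned to 4 higher and 8 lower. Without hybrid replicate 2 it was 4 and 2, without cDC2 replicate 1 it was 6 and 3, and without cDC2 replicate 2 it was 4 and 3.

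Genes of antigen processing for MHC class I were higher in most cases. Of 21 genes of cross-presentation and MHC class I, 16 were higher and 1 was lower (median log2 fold change 0.53), against 12.9% higher over all genes. Pdia3, a disulphide isomerase of the peptide-loading complex, was at 945 and 918 CPM in hybrid cells and at 456 and 411 CPM in cDC2 (1.10 ± 0.11 SE). Rab43, a small GTPase needed for cross-presentation, was at 150.2 and 159 CPM against 54.6 and 74.0 CPM (1.27 ± 0.13). Psmb9, an immunoproteasome subunit, was at 412 and 394 CPM against 195 and 213 CPM (0.99 ± 0.08), and Nlrc5, the transactivator of MHC class I genes, at 105 and 110.2 CPM against 45.9 and 47.1 CPM (1.21 ± 0.17). In all 4 the hybrid libraries were about a factor of 2 above the cDC2 libraries. The 1 lower gene was Rab27a, at 27.0 and 26.7 CPM against 33.9 and 33.5 CPM (-0.33, adjusted p = 0.0439), which passed in no fit that left out 1 of the 4 libraries. With library totals 11 genes were higher and 2 lower.

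The MHC class II list was mixed and sensitive to scaling. Of 15 genes tested 8 were higher (53.3%) and 2 lower (13.3%), against 12.9% and 12.5% over all genes (median log2 fold change 0.39). The paralogues H2-DMb1 and H2-DMb2, which encode β chains of the peptide exchange factor H2-DM, went opposite ways. H2-DMb1 was at 761 and 767 CPM in hybrid cells and at 404 and 419 CPM in cDC2 (0.89 ± 0.09 SE), and H2-DMb2 was at 531 and 509 CPM against 1118 and 1086 CPM (-1.08 ± 0.09). Reads of these near-identical neighbours can be split by the counting, so their separate levels are uncertain. Lgmn, which encodes the protease legumain, was at 376 and 353 CPM against 151 and 156 CPM (1.25 ± 0.12), although WT cDC1 were below WT cDC2 for it (-1.13). With library totals the list had 2 higher and 3 lower genes. Without hybrid replicate 1 it had 5 higher and 1 lower, and without cDC2 replicate 2 it had 5 higher and 2 lower.

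Of 26 pattern recognition receptors and adaptors tested 5 were higher (19.2%) and 8 lower (30.8%), against 12.9% and 12.5% over all genes (median log2 fold change 0.04, or -0.20 with library totals). Besides Tlr3, the receptors for profilin were higher: Tlr11 was at 94.8 and 96.9 CPM against 15.5 and 17.5 CPM (2.54 ± 0.14 SE), and Tlr12 at 27.5 and 22.0 CPM against 5.90 and 8.25 CPM (1.81 ± 0.20). Tlr7, which senses single-stranded RNA, was lower, at 15.6 and 13.6 CPM against 45.8 and 37.2 CPM (-1.50 ± 0.14). Tlr5 was lower as given above. No pair of groups overlapped for these genes.

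C-type lectins had the widest spread of any list, from -3.06 (Clec4a4) to 7.61 (Clec4b2) on the log2 scale. Of 23 tested 10 were higher (43.5%) and 7 lower (30.4%), against 12.9% and 12.5% over all genes, with a median of 0.16 that turned to -0.08 with library totals. Clec4b2 and Clec4a4 belong to the same DCIR and DCAR gene family on chromosome 6, so 2 relatives were at both ends of the list. Of 14 receptors for chemokines and other chemoattractants 2 were higher (14.3%), Xcr1 and Cxcr3, and 6 were lower (42.9%), with a median of -0.67. Ccr6, the receptor for CCL20, was at 4.82 and 3.77 CPM in hybrid cells and at 63.1 and 68.3 CPM in cDC2 (-3.93 ± 0.31 SE). Cx3cr1, the fractalkine receptor, was at 14.9 and 7.64 CPM against 57.3 and 55.0 CPM (-2.32 ± 0.42), and Ccr1 at 1.37 and 1.74 CPM against 13.4 and 16.4 CPM (-3.25 ± 0.30). All 3 were low in both hybrid libraries.

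Among receptors and bridging proteins of dead cell uptake 3 of 17 were higher (17.6%, near the 12.9% over all genes) and 6 lower (35.3%, against 12.5%), with a median log2 fold change of -0.38. Cd36, a scavenger receptor, was at 574 and 632 CPM in hybrid cells and at 41.7 and 66.0 CPM in cDC2 (3.48 ± 0.18 SE), and Clec9a rose with it. Itgb3, described above, and Pros1, which encodes the bridging protein S, were lower, with Pros1 at 2.32 and 2.06 CPM against 6.87 and 5.70 CPM (-1.52 ± 0.32). Among 18 genes of costimulation and maturation 3 were higher (16.7%, near the share over all genes) and 7 lower (38.9%), with a median of -0.58. Il15, a cytokine that sustains CD8 T cells, was at 24.0 and 25.2 CPM against 9.13 and 8.44 CPM (1.48 ± 0.21). Pdcd1lg2, which encodes PD-L2, was at 4.51 and 3.49 CPM against 15.4 and 11.8 CPM (-1.77 ± 0.29), and Tnfsf9, which encodes the CD137 ligand, at 16.9 and 17.6 CPM against 49.0 and 49.5 CPM (-1.51 ± 0.19). Cd86, a ligand of CD28 chosen after its values were seen, was higher, at 407 and 395 CPM against 177 and 189 CPM (1.13 ± 0.08).

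**Figure D3:**
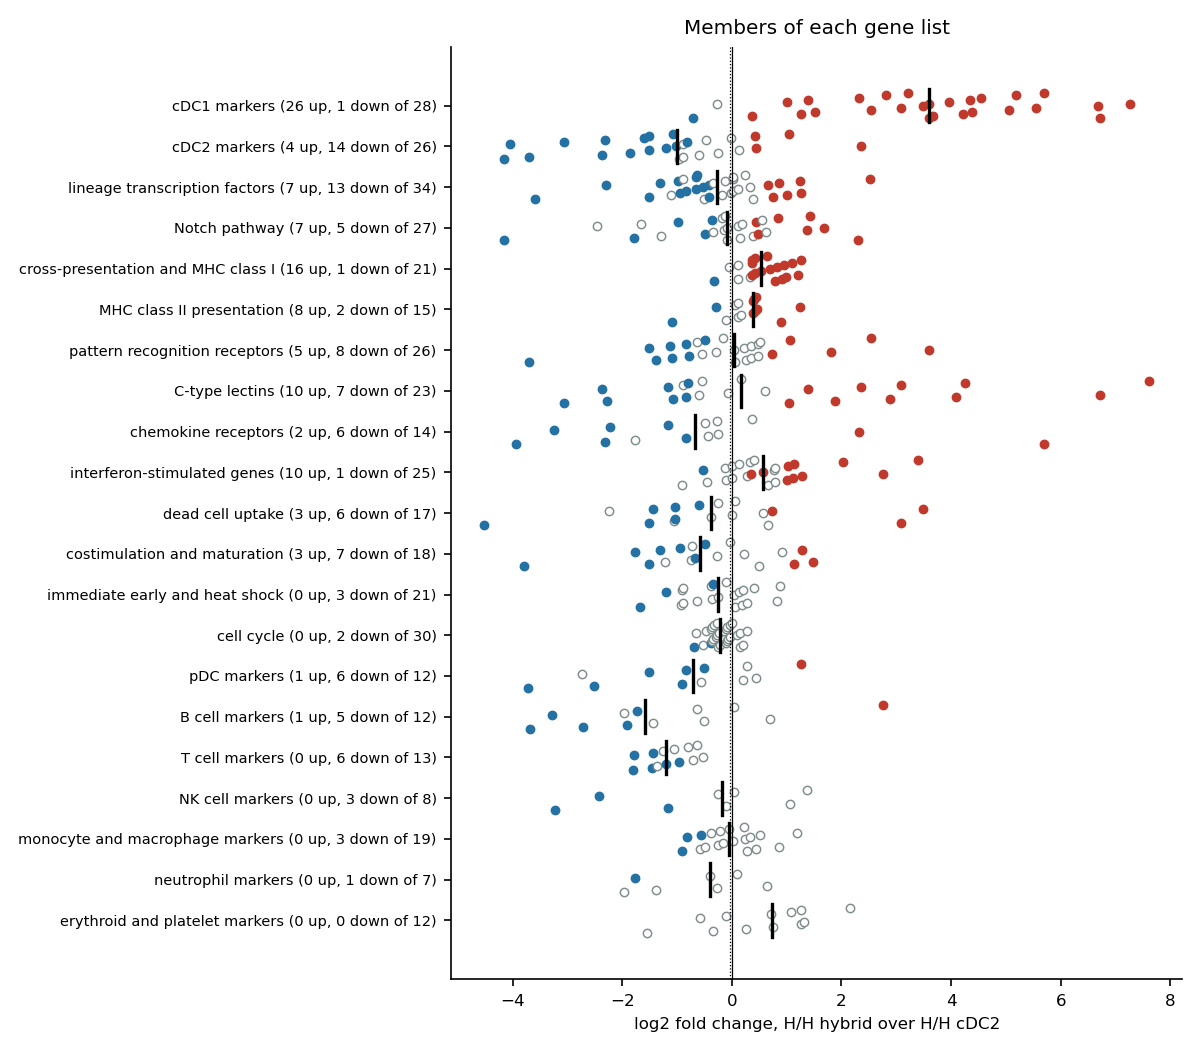
Log2 fold change of H/H hybrid cells against H/H cDC2 for the members of each gene list; filled dots passed the adjusted p threshold, hollow dots did not, the black bar is the median of the list and the dotted line the median of all genes tested. The cDC1 markers have a median of 3.60 and the cDC2 markers a median of -0.99.

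Interferon-stimulated genes were higher in part. Of 25 tested 10 were higher (40.0%) and 1 lower, against 12.9% and 12.5% of all genes (median log2 fold change 0.57). Ifit1bl1, of the IFIT family, was at 83.6 and 75.4 CPM in hybrid cells and at 12.2 and 11.3 CPM in cDC2 (2.76 ± 0.26 SE), and Oasl1, a member of the OAS family, at 24.3 and 29.2 CPM against 5.60 and 7.57 CPM (2.02 ± 0.20). Mx1, an antiviral GTPase, was at 44.5 and 65.3 CPM against 18.6 and 26.5 CPM (1.28 ± 0.19). These groups did not overlap. The largest change, that of Ifi44 (3.40 ± 0.71), came with spread inside both groups, at 25.6 and 52.8 CPM against 2.27 and 5.12 CPM, and its call was lost without cDC2 replicate 1 (adjusted p = 0.0726) and in a fit of the compared groups alone (adjusted p = 0.0809). With library totals the list had 7 higher and 2 lower genes, and without hybrid replicate 2 or without cDC2 replicate 1 it had 5 higher and 1 lower.

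In the WT lineages the interferon-stimulated genes were mostly the other way. WT cDC1 had 2 of the 25 above and 18 below WT cDC2, for a background of 20.5% and 23.4% of all genes. The test of the difference between both distances found 17 of the 25 higher in the H/H comparison than in the WT comparison, for a background of 7.71%, and none lower (edgeR, for a background of 760 genes, or 4.74%, in that direction). Ifit1bl1 itself was higher in H/H hybrid cells and lower in WT cDC1 (-1.93). Its rise over WT cDC1 was not particular to hybrid cells. It was at 2.40 and 1.77 CPM in WT cDC1, 33.8 and 23.4 CPM in H/+ cDC1 and 38.4 and 34.8 CPM in H/H cDC1. H/H cDC1 were thus also above H/H cDC2 for this gene. The whole list summed to 1537 and 1773 CPM in H/H cDC1, 1965 and 2445 CPM in H/H hybrid cells and 1405 and 1669 CPM in H/H cDC2.

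Cytoplasmic ribosomal protein genes, a list added after the data were seen, had 66 of 81 higher (81.5%, against 12.9% over all genes) and 0 lower (median log2 fold change 0.49). The count was 73 in DESeq2, 21 with library totals (median 0.25), 28 without hybrid replicate 1, 45 without hybrid replicate 2, 23 without cDC2 replicate 1 and 55 without cDC2 replicate 2. Of 30 cell cycle genes 2 (6.67%) were lower, Kif11 and Mcm7, and 0 higher in edgeR and in DESeq2, which called 6 lower. Both calls were lost when single libraries were left out, and with library totals 12 were lower. Of 21 immediate early and heat shock genes, a readout that can move with cell handling, 3 were lower (14.3%, near the 12.5% over all genes) and 0 higher. Egr2 was at 122 and 105 CPM in hybrid cells against 458 and 271 CPM in cDC2 (-1.68 ± 0.24 SE) and Nr4a1 at 1161 and 1147 CPM against 3203 and 2118 CPM (-1.21 ± 0.15). For both the replicate 1 library of cDC2 was the highest of the 4. With library totals 9 of these genes were lower, in DESeq2 6, and without cDC2 replicate 2 also 6.

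Markers of other cell types that a spleen sort can hold were checked list by list. The B cell genes Cd79a and Ebf1 were at or below 1.63 CPM in all 4 libraries, and Pax5 had 0 to 3 reads. Of 12 B cell genes 5 were lower (41.7%, against 12.5% over all genes) and 1 was higher: Ms4a1, which encodes CD20, was at 123 and 162 CPM in hybrid cells against 18.8 and 23.3 CPM in cDC2 (log2 fold change 2.75 ± 0.17 SE), and Cd22 was at 28.2 and 31.7 CPM against 113 and 111 CPM (-1.90 ± 0.12). Ms4a1 was also at 109 and 113 CPM in H/H cDC1. The summed B cell list was at 827 and 689 CPM in hybrid cells and at 768 and 952 CPM in cDC2, most of it Ighm, and immunoglobulin light chain RNA varied from 28.1 to 265 CPM for Igkc without separating the groups.

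T cell genes summed to 21.6 and 22.9 CPM in hybrid cells and to 51.7 and 57.4 CPM in cDC2, with 6 of 13 lower (46.2%, against 12.5% over all genes). Much of that was Cd5, at 5.77 and 6.84 CPM against 22.0 and 21.2 CPM, while Cd3e stayed between 0.810 and 1.97 CPM. Leaving out 1 library left 3 or 4 of the T cell genes lower. Of 12 plasmacytoid cell genes 6 were lower (50.0%) and 1 higher. Siglech, their defining lectin, was at 1.13 and 0.523 CPM against 11.0 and 10.9 CPM (log2 fold change -3.72 ± 0.36 SE), and Spib, an ETS factor of those cells, at 4.93 and 3.80 CPM against 24.5 and 25.5 CPM (-2.52 ± 0.30). The sums of that list were 251 and 260 CPM against 391 and 412 CPM. Much of that difference was Tcf4, given above as a factor of some cDC2 too, at 45.8 and 42.8 CPM against 123 and 129.7 CPM. Both the T cell and the plasmacytoid sums were higher in the cDC2 libraries without overlap, and their part in the lower genes was not tested.

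Monocyte and macrophage genes summed to 2242 and 1828 CPM in hybrid cells and to 1824 and 2024 CPM in cDC2, so the groups overlapped. Of the 19, 3 were lower (15.8%, near the 12.5% over all genes) and 0 higher in edgeR, and DESeq2 had 3 lower and 2 higher. The lower ones were Csf1r, Adgre1 and Ly6c2, each of which lost its call when 1 library was left out: Csf1r without hybrid replicate 2 (adjusted p = 0.0571), Adgre1 without hybrid replicate 1 (adjusted p = 0.0535), hybrid replicate 2 (adjusted p = 0.178) or cDC2 replicate 1 (adjusted p = 0.229), and Ly6c2 without hybrid replicate 1 (adjusted p = 0.0887), hybrid replicate 2 (adjusted p = 0.209) or cDC2 replicate 2 (adjusted p = 0.304). C1qb, a complement gene abundant in splenic macrophages, was at 81.9 and 74.2 CPM against 70.7 and 110.3 CPM. Erythroid and platelet genes summed to 143 and 47.6 CPM in hybrid cells and to 40.8 and 43.3 CPM in cDC2, with the excess in hybrid replicate 1 alone and none of 12 past the threshold. Neutrophil genes summed to at most 18.8 CPM, and NK cell genes to 85.4 and 95.8 CPM against 78.3 and 105 CPM, nearly all of it Klrk1. The libraries themselves were of like depth, with 27.0 to 30.7 M estimated reads in the 4 H/H libraries compared and 23.4 to 38.2 M over experiment 1. In each group replicate 1 held Y-linked Ddx3y RNA and replicate 2 held Xist RNA, so the sexes were balanced between the groups.

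The distance between WT cDC1 and WT cDC2, from libraries that the H/H comparison does not use, gives a scale for these changes. In WT mice 7050 genes (44.0%) differed, 3291 higher (20.5%) and 3759 lower (23.4%) in cDC1. Of the 2072 genes higher in H/H hybrid cells 1555 (75.0%) were also higher in WT cDC1, which is 47.3% of the WT list. Of the 2006 lower genes 1587 (79.1%) were also lower in WT cDC1, 42.2% of that list. Opposite directions were found for 93 genes that were higher and 21 that were lower in hybrid cells.

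Hybrid cells were further along on the cDC1 side of this scale than on the cDC2 side. Among the 143 genes at least 16-fold higher in WT cDC1, 102 were higher in H/H hybrid cells than in H/H cDC2, 1 was lower and 40 did not pass, and the median gene covered 61.8% of its WT log2 distance (quartiles 39.6% and 77.8%). Among the 547 genes at least 16-fold higher in WT cDC2, 305 were lower in hybrid cells, 9 higher and 233 did not pass, with a median of 33.4% (quartiles 14.5% and 51.5%). The difference between both distances was tested gene by gene, and 1996 genes (12.4%) passed in either direction over the whole table. Of the 143 genes, 57 had a smaller distance in the H/H comparison, for a background of 4.74% of all genes called lower. Of the 547 genes, 274 had a smaller distance, for a background of 7.71% of all genes called higher. None of either set had a larger distance in the H/H comparison. Choosing genes at the extreme of the WT comparison tends to make the other distance smaller, so these shares are descriptions. H/H cDC2 and WT cDC2 are also separate baselines, and WT cDC1 differ from H/H hybrid cells in genotype as well as in cell type. Leaving out 1 of the 4 libraries moved the medians to between 57.4% and 69.4% on the cDC1 side and to between 32.3% and 37.0% on the cDC2 side.

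Single genes spanned this range. Itgae covered its WT distance, with a log2 fold change of 6.68 against 6.69 in WT, a difference of -0.01 ± 0.70 (SE) that leaves a wide margin. Irf8 was at 2.52 against 5.55, and the difference of -3.03 ± 0.19 passed the test (adjusted p = 3.94e-08). Gpr141b was at 5.18 against 9.10, and Dbn1, which encodes the actin-binding protein drebrin, at 1.20 against 5.47. For Irf8, Gpr141b and Dbn1 the H/H cDC1 libraries were themselves below WT cDC1. Irf8 was at 837 and 831 CPM there against 2580 and 1960 CPM in WT cDC1. Gpr141b was at 325 and 256 CPM against 455 and 421 CPM, and Dbn1 at 50.4 and 47.7 CPM against 152 and 120 CPM. The part of the genotype in these differences was not tested. Among genes of the cDC2 side the departures were larger still. Cybb, the catalytic subunit of the phagocyte NADPH oxidase, was at 333 and 341 CPM in hybrid cells and at 446 and 444 CPM in cDC2 (-0.40), against 4.21 and 3.24 CPM in WT cDC1 and 534 and 494 CPM in WT cDC2 (-7.11). Clec4a1, another gene of the DCIR family, was at 77.5 and 67.8 CPM against 128 and 125 CPM (-0.80, against -8.36 in WT). Both transcripts were closer to the H/H cDC2 level than to the WT cDC1 level. H/H cDC1 held 62.0 and 69.8 CPM of Cybb, more than WT cDC1, and 2.65 and 2.69 CPM of Clec4a1. The Cybb call against cDC2 rests on little, with an adjusted p of 0.0469, and was lost in each of the 4 fits that left out a library (adjusted p = 0.129 to 0.188).

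**Figure D4:**
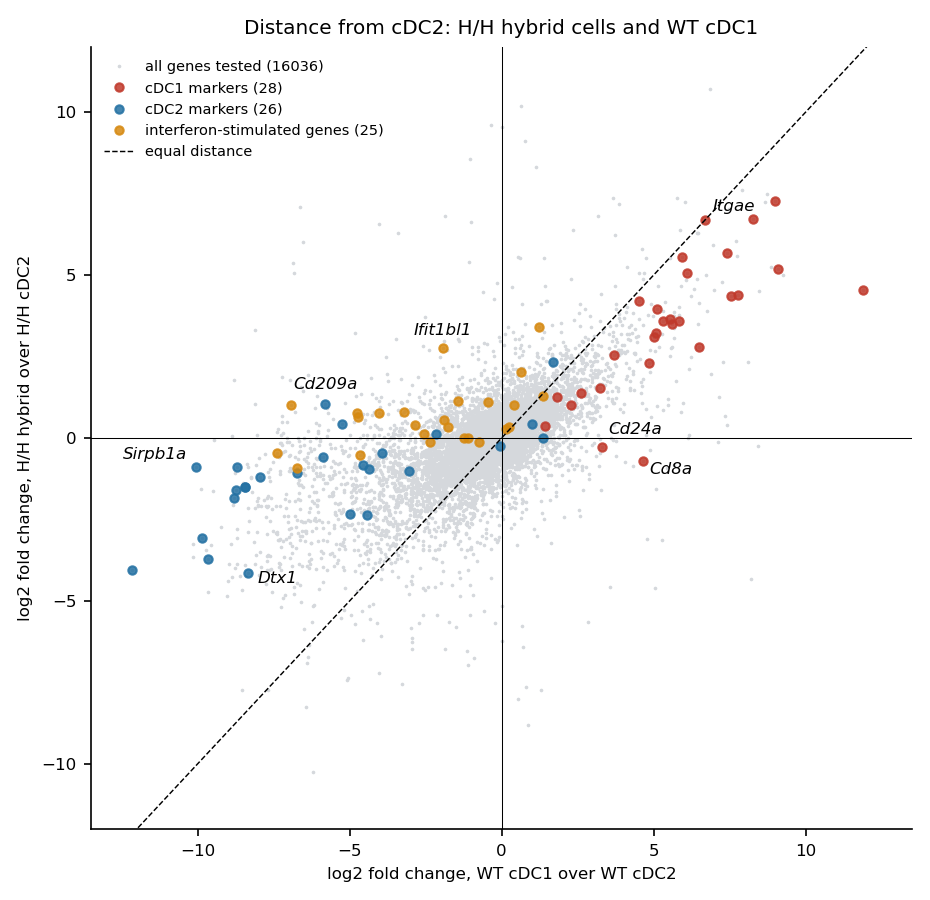
Log2 fold change of WT cDC1 against WT cDC2 on the x axis and of H/H hybrid cells against H/H cDC2 on the y axis. All 16036 genes tested are in grey, and cDC1 markers, cDC2 markers and interferon-stimulated genes are in colour. There is 1 dot a gene, and a dashed line marks where both are equal. The cDC1 markers lie on the right below the line, or on it for Itgae, with Cd8a alone under 0 by a call (and Cd24a with library totals), and many cDC2 markers lie far above it on the left.

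Hybrid cells of H/+ mice, which have 1 altered copy, differed from H/+ cDC2 in 3045 genes (19.0%), 1649 higher (10.3%) and 1396 lower (8.71%), in libraries that share none with the H/H comparison. Of the higher genes 1411 were higher in both, which is 85.6% of the H/+ list and 68.1% of the H/H list. Of the lower genes 1190 were lower in both, 85.2% and 59.3% of the lists. Irf8 itself was at 394 and 405 CPM in H/+ hybrid cells and at 57.1 and 63.6 CPM in H/+ cDC2, and Xcr1 at 358 and 401 CPM against 6.12 and 7.66 CPM. On the log2 scale these distances were 2.72 for Irf8 and 5.78 for Xcr1, against 2.52 and 5.69 in H/H. Neither differed between the genotypes by the test (adjusted p = 1 for both), which does not show that they are equal. No gene was called higher in one genotype's comparison and lower in the other's, apart from Cd8a.

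The difference between both genotypes' distances was tested for every gene, and 2 genes (0.0125%) passed, both further down in H/H: Cd8a and Clec4a4. DESeq2 called 13, and 469 genes had an unadjusted p below 0.05 in edgeR. Cd8a was higher in hybrid cells than in cDC2 of H/+ mice, at 29.3 and 32.4 CPM against 21.1 and 16.1 CPM (0.73), and lower in H/H mice (-0.71), a difference of -1.44 ± 0.20 (SE, adjusted p = 0.0327). Clec4a4 was at 34.1 and 40.6 CPM in H/+ hybrid cells against 124 and 122 CPM in H/+ cDC2 (-1.72, against -3.06 in H/H), a difference of -1.34 ± 0.16 (adjusted p = 0.00730). Cd8a was also lower in H/H cDC1 than in H/+ cDC1, at 117 and 134 CPM against 292 and 238 CPM. For both genes the H/H hybrid libraries were below both H/+ hybrid libraries. The difference kept its sign in every fit run, and the adjusted p rose to 0.204 for Cd8a and 0.0700 for Clec4a4 with the compared groups alone. Leaving out 1 of the 8 libraries gave an adjusted p of 0.0177 to 0.266 for Cd8a and of 0.00700 to 0.130 for Clec4a4, and both were past the threshold only without replicate 1 of H/+ cDC2.

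Some genes were above or below both H/H neighbours rather than between them. H/H hybrid cells differed from H/H cDC1 in 1259 genes (7.85%), 840 higher (5.24%) and 419 lower (2.61%), or in 623, 647, 765 and 568 genes without hybrid replicate 1 or 2 or cDC1 replicate 1 or 2, in that order. Both comparisons use the same hybrid libraries, and 116 genes (0.723%) were higher and 49 (0.306%) lower in both. Clec1b, which encodes the podoplanin receptor CLEC-2, was at 66.0 and 98.2 CPM in hybrid cells, at 3.30 and 5.25 CPM in cDC2 and at 8.14 and 7.35 CPM in cDC1. Cd209e, a DC-SIGN homologue, was at 62.9 and 80.5 CPM against 10.7 and 8.67 CPM and 23.0 and 27.0 CPM. Fcgr4, an activating Fc receptor for IgG, was at 45.1 and 57.4 CPM against 14.1 and 19.3 CPM and 8.80 and 8.47 CPM. Among the H/H libraries all 3 were highest in the 2 of hybrid cells. So was Apoe, the lipid carrier, at 523 and 717 CPM against 172 and 182 CPM and 241 and 196 CPM. These levels were not particular to H/H. Hybrid cells of H/+ mice held 88.7 and 132 CPM of Clec1b, 39.6 and 54.0 CPM of Cd209e and 40.0 and 65.8 CPM of Fcgr4. Of the 116 genes 80 were also higher in H/+ hybrid cells than in H/+ cDC2, for a background of 10.3%. Of the 49 genes 27 were also lower there, for a background of 8.71%.

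Below both neighbours were Anxa2, a membrane-binding annexin, and Septin1, a septin GTPase. Septin1 was at 27.1 and 29.2 CPM in hybrid cells, at 95.3 and 94.0 CPM in cDC2 and at 48.3 and 49.6 CPM in cDC1. Anxa2 was at 86.9 and 76.1 CPM against 187 and 207 CPM and 199.5 and 206 CPM, and its call against cDC2 was lost without hybrid replicate 2 (adjusted p = 0.0601). In both genes the hybrid libraries were the lowest of the 6. The number of such genes depended on single libraries. Above both were 45 genes without hybrid replicate 1, 44 without hybrid replicate 2, 74 without cDC1 replicate 1 and 48 without cDC1 replicate 2, and below both 12, 21, 32 and 17 in the same order. Without either cDC2 library 84 or 89 were above and 37 or 34 below. With library totals 56 were above and 105 below, and other fits gave more: 179 above and 69 below without a filter, 190 and 76 with a term for libraries that hold Xist, 207 and 84 with a replicate block within genotype, and 215 and 70 with the compared groups alone.

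**Figure D5:**
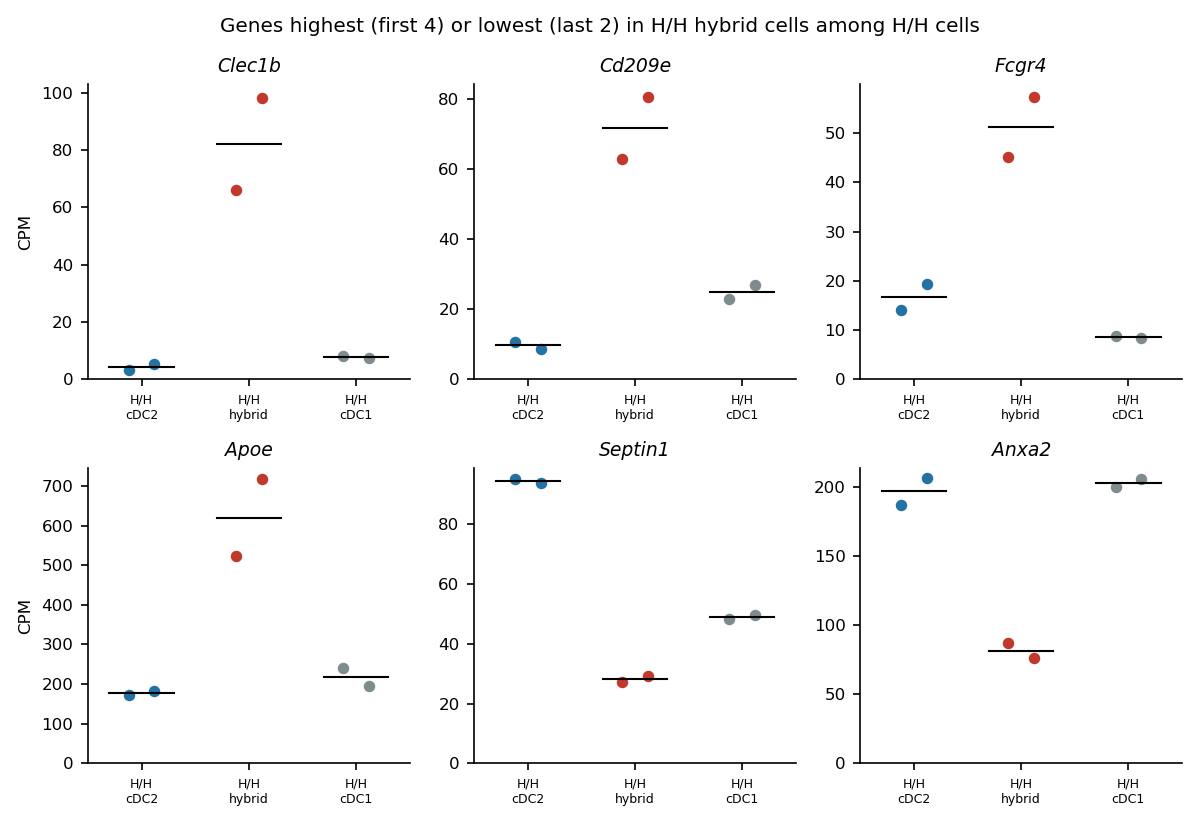
CPM on linear axes from 0 of 4 genes above and 2 genes below both H/H cDC2 and H/H cDC1; each dot is a library and each bar the mean of 2. Clec1b is at 66.0 and 98.2 CPM in H/H hybrid cells and at most 8.14 CPM in the other 4 H/H libraries.

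Experiment 2 held separate libraries of H/H hybrid cells and H/H cDC1, normalised on their own, so the comparison with cDC1 could be repeated there. Of the 116 genes above both neighbours 115 could be tested against cDC1 there, 81 (70.4%) were called higher again and 113 had the same direction, for a background of 7.31% of tested genes called higher. Of the 49 genes below both neighbours 21 (42.9%) were called lower again and 47 had the same direction, for a background of 5.30%. Clec1b was at 101 and 74.6 CPM in hybrid cells of experiment 2 and at 16.3 and 10.5 CPM in cDC1, and Fcgr4 at 55.6 and 59.5 CPM against 12.5 and 15.5 CPM. For both the groups did not overlap in either experiment. Cd209e was at 58.3 and 105 CPM against 31.6 and 59.1 CPM and did not pass (adjusted p = 0.167).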

How the data were processed

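RNA was measured in sort-purified spleen dendritic cells, with total RNA of integrity above the labelled minimum made into cDNA libraries by a SMARTer Ultra Low kit, per the labels' protocols. Each experiment has 1 deposited table with an expected count (an estimate that need not be whole) for every Ensembl gene and library. The submitters' processing notes name bcl2fastq, DRAGEN and edgeR, and versions, settings, genome build and annotation are not given in the sources used here. Of the values of experiment 1, 10.8% were not whole, and 287 repeated lines were dropped, which left 55487 of 55774 lines. Values were rounded to whole counts. Coordinates come from GENCODE M21 (GRCm38) by Ensembl ID and promoters from RefSeq (GRCm38.p6) by symbol.

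Libraries were grouped by their titles. The 16 libraries of experiment 1 were fitted together with edgeR 4.0.16 in R 4.3.3, with 1 coefficient for each of 8 groups: filterByExpr by group, TMM factors (0.914 to 1.113), robust glmQLFit and glmQLFTest, and Benjamini-Hochberg adjustment over all 16036 genes tested, with a threshold of 0.05. There were 8 residual degrees of freedom, and the median biological coefficient of variation was 0.150. The SE was taken from F, as the absolute log2 fold change over its square root. CPM use the TMM-scaled library size. Differences between distances were tested as contrasts of contrasts. Experiment 2 was fitted on its own (14504 genes, 6 residual degrees of freedom). Replicates of a group differed by more than sampling noise (chi-square per degree of freedom 12.3 in H/H hybrid cells and 22.8 in H/H cDC2). Counts were also simulated from the fitted means and depths, with H/H hybrid cells and H/H cDC2 set to a common mean for every gene. The hybrid mean was then changed in 200 genes with a mean above 1 CPM over the 16 libraries. Among 15760 genes the test found 13 of 50 changed 1.5-fold and 36 of 50 changed 2-fold. It found 48 of 50 changed 4-fold and 49 of 50 changed 8-fold, with 6 false calls.

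The comparison, the gene lists and the tests were chosen with earlier results of these data known. Named are 14 fixed genes (Batf3, Cd8a, Dtx1, Id2, Irf4, Irf8, Itgae, Itgam, Nfil3, Sirpa, Tcf4, Xcr1, Zbtb46 and Zeb2). Added were the 12 largest rises and 12 largest falls among called genes without overlap. These had a mean of 10 CPM or more in 1 group, and predicted genes, pseudogenes and receptor segments were left out. Of each list, up to 4 called members with at least 5 CPM and any member the list turns on were named. Also named were the 8 largest above and 8 largest below both H/H neighbours, and the 6 largest opposite to WT each way. The last were the 6 smallest p each way in each difference of distances. Other genes named were chosen after their values were seen. They are called list members outside the first 4 or below 5 CPM, among them Cd86, Tbx21, Clec12a, Notch2 and Rab27a. Members that did not pass or that show the level of another cell type, and Prdm1, were chosen in the same way. Alternatives were DESeq2 1.42.0, other size factors, other filters, the compared groups alone, terms for the replicate number and leaving out each library; library totals without TMM factors, a single replicate term and a fit without immunoglobulin, T cell receptor, haemoglobin and mitochondrial genes were added after the data were seen. Values of some genes that the rule or a list names are not reported here.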

Additional observations from a re-analysis of the deposited data

Results flagged for a closer look

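The hybrid to cDC2 distances of Cd8a and Clec4a4 differed between H/H and H/+ mice by the test of that difference. For Cd8a the H/H distance minus the H/+ distance was -1.44 on the log2 scale, with the hybrid libraries at 14.4 and 15.0 CPM in H/H and at 29.3 and 32.4 CPM in H/+. For Clec4a4 it was -1.34, with 14.5 CPM in both H/H hybrid libraries and 34.1 and 40.6 CPM in the H/+ ones. The lower Cd8a level in H/H mice was not particular to hybrid cells. In cDC1 it was at 117 and 134 CPM in H/H and at 292 and 238 CPM in H/+. Both differences between distances came from 2 libraries a group.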

How the results depend on the processing

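The number of genes called in H/H hybrid cells against H/H cDC2 was 4091 in DESeq2, 4094 with the size factors of DESeq2 in edgeR, 5328 with library totals, 4122 without a filter, 3160 with at least 10 CPM in 2 libraries and 4592 with the compared groups alone, against 4078. Leaving out 1 library gave 2520 to 3051 calls there, 568 to 765 against H/H cDC1 (1259 with all), 1797 to 2234 in H/+ (3045 with all, 1797 without H/+ hybrid replicate 2) and 0 to 2 for the difference between genotypes. The last was 36 without a filter, 0 in edgeR with the compared groups alone (448 genes at an unadjusted p below 0.05) and 13 in DESeq2, against 2. Whether equal replicate numbers pair libraries is not stated in the labels. The deviations of equal numbers in hybrid cells and cDC2 of H/H mice correlated at 0.305 over 7308 genes. Pairs of groups within a genotype ranged from -0.103 to 0.515. Pairs of different genotypes ranged from -0.180 to 0.475, so the correlation cannot tell whether libraries are paired. A replicate block within genotype gave 4674 calls, and a single replicate term 4665. That term is the same as one for libraries that hold Xist. Of the 111 genes named by rule 88 kept their call under every alternative in which they were tested, 23 did not and 0 reversed (3 of the 111, Fcer2a, Ly6c2 and Pros1, were not tested with at least 10 CPM in 2 libraries); apart from leave-outs, H2-M2 lost its call without a filter, Relb and Ifi44 with the compared groups alone, Cd4 and H2-Ab1 with library totals, and Cd24a gained one there. In the simulated counts 13 of 50 changes of 1.5-fold were found, but only 200 genes were changed there. Far more genes were called in the data, which eases the cut on the unadjusted p, so that share does not carry over. With 2 libraries a group, changes under 2-fold can be missed, and a gene not called is not shown to be equal. An estimate for a gene whose cDC2 libraries hold a few reads has the precision of those reads.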

Other observations

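Prdm1, which encodes the repressor BLIMP-1 and was chosen after its values were seen, was above both H/H neighbours. It was at 22.0 and 19.4 CPM in H/H hybrid cells, at 8.93 and 8.54 CPM in H/H cDC2 and at 6.11 and 5.27 CPM in H/H cDC1, and the groups did not overlap. Against cDC2 the log2 fold change was 1.24 ± 0.19 (SE, edgeR adjusted p = 2.07e-04), while WT cDC1 were below WT cDC2 by -4.14. The H/+ comparison gave 1.08.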
